A study of Mus musculus with 16 samples.

Results

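The homologous recombination repair genes Brca1, Brca2, Rad51ap1, Rad54l, Fanca, Fancd2, Blm, Exo1 and Xrcc2 were followed in mouse liver. These 9 genes were chosen by name; 31480 genes were tested in all, of which 17662 carried a symbol. For each gene the probe with the highest mean over 16 arrays stood for the gene. A gene entered the test where 4 or more of the 16 arrays carried the scanner's mark for a signal well above background, and 6 of the 9 did. Rad54l was marked on 3 arrays, and Exo1 and Fancd2 on 0.

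Liver RNA came from 16 male mice, 6 weeks old, with 1 array per mouse. All carried a mixed background of 75% C57BL/6 and 25% SV129. The labels name 4 genotypes of CerS2, ceramide synthase 2, with 4 mice each: WT (wild type), H/A (condition HA, read here as a histidine-to-alanine change), Del (condition delHox) and Flox (condition delneo). The labels do not say what the Del and Flox alleles contain, whether any allele was limited to a cell type, or which mice were littermates. The p-values measure the spread between these mice only. No probe was paired with the name Cers2, so the genotype labels were not checked against the engineered gene. The series' title asks how the catalytic activity of this enzyme bears on transcription, and each of the H/A and Del groups was therefore compared with both WT and Flox.

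Homologous recombination repairs a break in both DNA strands by copying intact matching DNA, usually that of the sister chromatid. Exo1 and Blm resect the broken ends, Brca1 promotes resection, Brca2 prepares the resected single-stranded DNA for strand exchange, and Rad51ap1, Rad54l and Xrcc2 assist strand invasion. The Fanconi anaemia proteins, Fanca and Fancd2 among them, act on crosslinked DNA and hand it to this pathway. Many of its genes are transcribed mainly in cells that replicate DNA, and most hepatocytes of an adult liver are at rest. In bulk liver RNA, fewer cells of a type and less RNA per cell cannot be told apart.

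The 9 genes had 21 probes of 46 to 57 bases with a GC content of 37.3% to 51.1%. None of the 21 shared a stretch of 20 bases with a probe of another gene. The first 30 bases of the probes on which the results turn are shown 5′ to 3′, as the scanner files list them, so that each value can be tied to a stretch of transcript. The first 6 are the brightest probes of the tested genes, followed by that of Rad54l and by dimmer probes of Brca1 and Fanca whose values are given beside the bright one.
Rad51ap1: acagctgatgcatcgtctcaggaagctctg
Brca2: gctctacctggtctgtgttggtgtaactaa
Blm: gttctctgcgcatagatcttgtttgtcagc
Xrcc2: gactagaatgttcgagtcttcctccttcct
Brca1: cccccccagtatgcaagggcaatggagacc
Fanca: aggctgctaccacttgctttctacagtctc
Rad54l: ctgcctcatgaggctctgctcagttttatt
Brca1, probe XM_006532064: agaaatccaagcccacctacttgtgctgag
Brca1, probe XM_006532068: tggaatcagccttttctctagtagagaccc
Fanca, probe XM_006530664: ctctctgctcttctgcatgaacttctgcac

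The 250 bases before the transcription start were read for the 6 genes with an entry in the RefSeq table of the GRCm38.p6 build: Brca1, Brca2, Rad51ap1, Rad54l, Fanca and Blm. They were searched on both strands for the CCAAT box, for the E2F motifs TTTCGCGC, TTTGGCGC and TTTCCCGC, and for the cell cycle homology region TTTGAA. No matches overlapped in these windows. The windows of Rad51ap1, Brca2 and Blm are shown because these are the genes that rose in the tests below, with matches in capitals.
Rad51ap1, chr6:126939588-126939837, minus strand: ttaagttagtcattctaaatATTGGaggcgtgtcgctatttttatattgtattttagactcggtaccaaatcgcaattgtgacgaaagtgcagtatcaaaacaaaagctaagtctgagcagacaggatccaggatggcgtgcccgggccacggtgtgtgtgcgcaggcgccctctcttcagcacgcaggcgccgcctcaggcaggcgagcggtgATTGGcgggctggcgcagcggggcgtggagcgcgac
Brca2, chr5:150522371-150522620, plus strand: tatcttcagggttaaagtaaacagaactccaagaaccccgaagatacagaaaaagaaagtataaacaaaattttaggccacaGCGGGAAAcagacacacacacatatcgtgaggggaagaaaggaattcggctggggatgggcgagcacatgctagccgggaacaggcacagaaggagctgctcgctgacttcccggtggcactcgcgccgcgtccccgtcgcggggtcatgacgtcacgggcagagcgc
Blm, chr7:80534999-80535248, minus strand: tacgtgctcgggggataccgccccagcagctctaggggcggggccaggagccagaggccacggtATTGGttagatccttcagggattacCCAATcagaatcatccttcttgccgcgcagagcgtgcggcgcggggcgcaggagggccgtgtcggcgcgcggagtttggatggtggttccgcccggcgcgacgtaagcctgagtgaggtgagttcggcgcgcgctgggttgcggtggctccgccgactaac
Rad51ap1 had a CCAAT box 230 and another 36 bases before its start, and Blm had them at 186 and 161 bases. Brca2 had 1 TTTCCCGC match, 168 bases before its start and on the opposite strand. A CCAAT box stood in the windows of 5 of the 6 genes, all but Brca2, and in 33.9% of 32851 promoter windows of the same length. An E2F match stood in 1 of 6 and in 1.53% of all windows, and TTTGAA in 0 of 6 and in 16.0%. These matches are letters in a window and are no measure of binding.

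Some deposited scanner files did not belong to the sample they are listed for. Of the 16 value columns, 10 matched their listed file, whereas 6 (H/A replicate 4, WT replicate 3, Del replicate 1 and Flox replicates 1, 2 and 4) matched the file of another sample. All 16 columns matched the scan whose slide and place the sample's own label gives, with r = 1.0, against -0.30 to 0.16 for the listed file of those 6. The value columns by label were used throughout. With the scanner values taken as listed, none of the tested genes was called by limma in any comparison of a mutant with a control. At most 5 of all 31480 genes were called there, so this tells nothing particular to the tested genes. Between 51.6% and 65.1% of an array's probes were well above background, no probe was saturated, and the array number limits the precision. Hepatocyte markers were bright on all arrays, with a mean log2 value of 13.25 to 13.74 over 10 markers.

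Levels are deposited log2 values after quantile normalisation, a difference is a log2 difference between group means, and each is given with a 95% interval or SD. A gene was called when limma's adjusted p over all 31480 genes was under 0.05. Of the 6 tested genes, 2 were called in H/A with WT, both higher. For comparison, 10.1% of all genes tested were called there and 7.08% were called higher. In Del with WT 2 were called, both higher, against 13.2% of all genes called and 8.85% called higher. In Del with Flox 1 was called, which was higher, against 34.8% called and 16.6% called higher. In H/A with Flox 3 were called, 2 higher and 1 lower, against 33.2% of all genes called, 15.9% higher and 17.3% lower. Read against these shares, 1 of 6 in Del with Flox is no more than the background, and the other counts are of very few genes. The tested genes also include Rad51ap1, which passed the filter only through the H/A and Del arrays where it was bright. Blm was marked on 3 H/A, 3 Del, 2 WT and 1 Flox array, so its control marks alone would not have passed it. The median difference of the tested genes was 0.56, 0.65, 0.41 and 0.29 in these 4 comparisons. That of all genes was -0.09, -0.11, -0.14 and -0.14. The medians of the tested genes do not show a shift of the set, since they count Rad51ap1 and Blm and fall in a gap between genes. In H/A with WT the gap ran from -0.16 (Fanca) to 1.28 (Brca2). Without Rad51ap1 the middle value there was that of Fanca, -0.16. Elsewhere it was that of Brca1: -0.01 when Del was set against WT, and against Flox -0.14 for Del and -0.30 for H/A. These middle values still count Blm. Both comparisons with WT share the WT arrays and both with Flox the Flox arrays, so they are not independent. The split of all genes depended on scaling: 2230 were higher and 936 lower in H/A with WT, against 9416 and 126 without scaling between arrays. In Del with WT 2786 were higher and 1379 lower (1804 and 437 without scaling), in H/A with Flox 5017 and 5441 (10390 and 117), and in Del with Flox 5230 and 5716 (3406 and 959). It also depended on single arrays: in H/A with WT 3784 were higher and 4237 lower without WT replicate 2, and 1158 and 292 without WT replicate 4, so that the share of 10.1% is itself not a fixed yardstick.

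**Figure D1:**
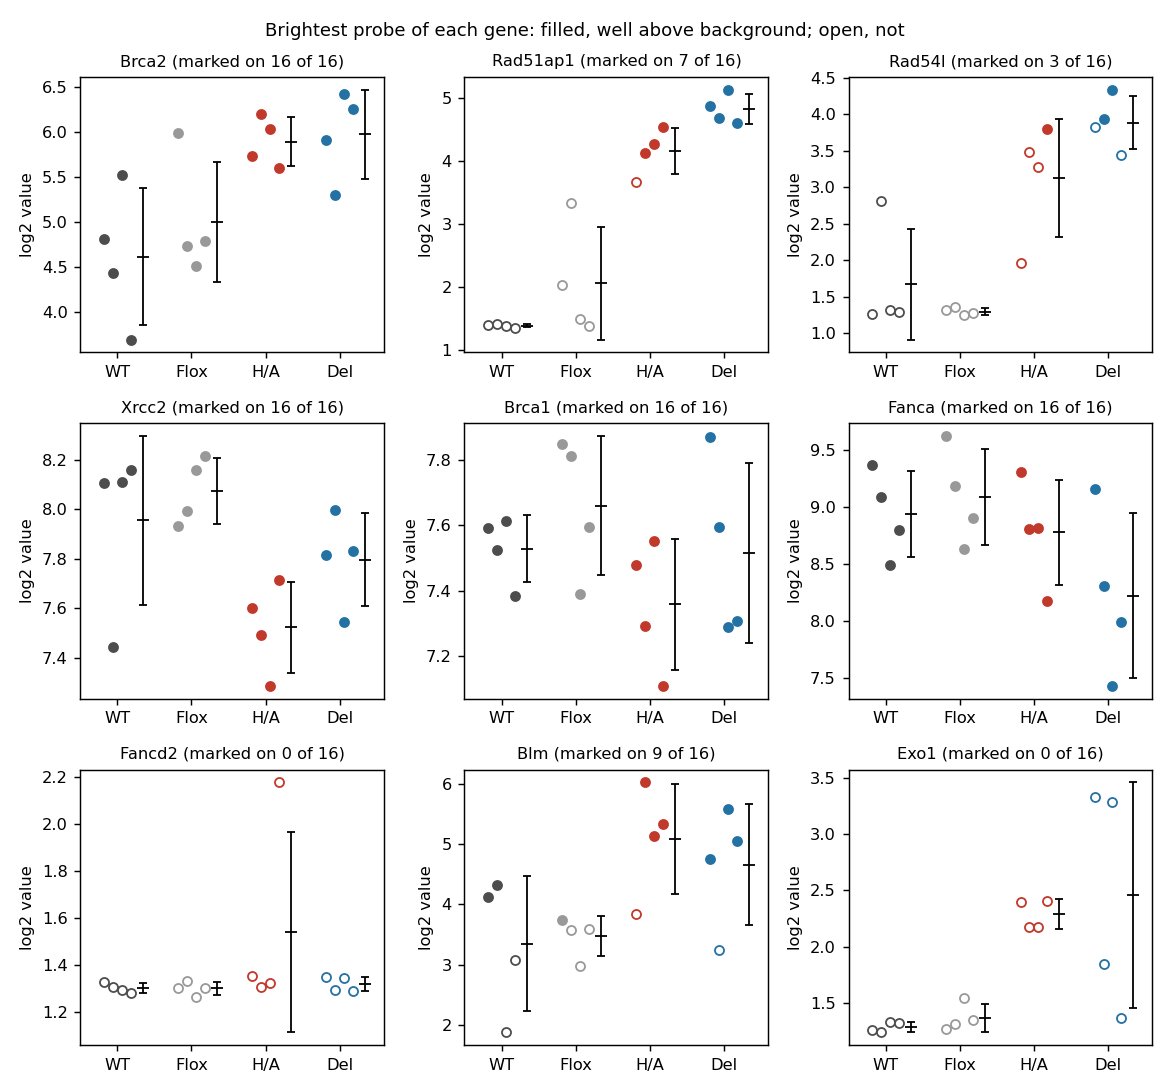
Log2 value (y axis) of the brightest probe of each of the 9 genes in WT, Flox, H/A and Del livers (x axis). Each point is 1 of 16 arrays, filled where the probe was well above background, and the bars give the mean ± SD of 4 mice; Rad51ap1 sits at 3.67 or above in H/A and Del and at 3.34 or below in WT and Flox.

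Rad51ap1, which stimulates strand invasion, was well above background on 3 H/A arrays, 4 Del arrays and no control array. H/A replicate 1, at 3.67, was not marked. Rad51ap1 was called higher in all 4 comparisons of a mutant with a control. Its log2 value was 1.39, 1.41, 1.38 and 1.35 in WT and 2.03, 3.34, 1.48 and 1.37 in Flox. It was 3.67, 4.13, 4.28 and 4.55 in H/A and 4.87, 4.69, 5.13 and 4.61 in Del. All 8 H/A and Del arrays lay above all 8 WT and Flox arrays, and among the controls Flox replicate 2 was the highest. The probe was not well above background on any WT or Flox array, so only a bound on the fold exists. H/A was at least 1.52-fold above WT, and Del at least 2.42-fold. Against Flox, H/A was at least 1.68-fold and Del at least 2.67-fold higher. Each bound sets the bright group's mean against the dimmest marked signal of the control arrays, or the probe's own where that was higher. With the control values taken as measured, limma's adjusted p was 0.000197 in H/A with WT, 1.94e-05 in Del with WT, 0.000951 in H/A with Flox and 9.54e-05 in Del with Flox. These p-values rest on control values below background, and the gene entered the test only through its bright mutant arrays. The call stood in all 4 comparisons without any 1 array. On the 10 arrays whose listed file matched, it stood in both comparisons with WT. These arrays held a single Flox array, on slide 2, with all their H/A arrays on slide 1 and all their Del arrays on slide 2. Measured differences from that Flox array were 2.54 for H/A and 3.32 for Del. With the slide as a block the call stood in all 4 comparisons. Measured values then differed by 2.71 in H/A with WT, 3.51 in Del with WT, 2.03 in H/A with Flox and 2.84 in Del with Flox. Slide 2 held a single H/A array and slide 1 a single Del array, each taken to vary like the other groups. Within slide 2 the measured differences were 3.18, 3.45, 3.12 and 3.38 in the same order, all called. Within slide 1 they were 2.62, 3.47, 1.34 and 2.19, with adjusted p of 0.0894, 0.0503, 0.114 and 0.126.

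Rad54l, a motor protein of strand exchange, was too dim for the filter. Its log2 value was 1.27, 2.81, 1.31 and 1.28 in WT and 1.31, 1.35, 1.24 and 1.28 in Flox. It was 1.96, 3.48, 3.28 and 3.80 in H/A and 3.83, 3.93, 4.34 and 3.44 in Del. Every Del array lay above every control array, whereas H/A overlapped WT through WT replicate 2 and H/A replicate 1. The probe was well above background on 2 Del arrays, 1 H/A array and no control array. Del was at least 1.26-fold above WT and at least 1.39-fold above Flox, and no bound above 1 could be given for H/A. Without the filter on dim probes, limma called Rad54l higher in all 4 comparisons: by 1.46 in H/A with WT (adjusted p = 0.0455), 2.22 in Del with WT (adjusted p = 0.00371), 1.83 in H/A with Flox (adjusted p = 0.0091) and 2.59 in Del with Flox (adjusted p = 0.00113). These values rest mostly on arrays where the probe could not be told from background. The 3 other Rad54l probes were marked on no array and had group means of 1.20 to 1.77.

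Brca2, which acts on resected single-stranded DNA before strand invasion, rose against WT in both mutants. Its probe was well above background on all 16 arrays. The log2 value was 4.81, 4.44, 5.52 and 3.69 in WT and 5.99, 4.74, 4.51 and 4.79 in Flox. It was 5.73, 6.21, 6.04 and 5.61 in H/A and 5.91, 5.31, 6.43 and 6.26 in Del. H/A lay above every WT array, while Del overlapped WT at Del replicate 2 and WT replicate 3, and Flox replicate 1 was as high as the mutants. The difference was 1.28 in H/A with WT (95% interval 0.49 to 2.07, adjusted p = 0.0413 in limma) and 1.36 in Del with WT (0.57 to 2.15, adjusted p = 0.0257). Against Flox it was 0.89 for H/A (0.10 to 1.68, adjusted p = 0.0746) and 0.97 for Del (0.18 to 1.76, adjusted p = 0.0538), which did not pass. Without Flox replicate 1 both passed, at 1.22 (adjusted p = 0.0276) and 1.30 (adjusted p = 0.0199). Del with Flox also passed with the slide as a block (1.04, adjusted p = 0.0425), and without any 1 of WT replicates 3 and 4 and Del replicate 2 (0.97 to 1.19).

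The Brca2 calls were close to the threshold. With the slide as a block the difference in H/A with WT was 1.21 (adjusted p = 0.061) and in Del with WT 1.43 (adjusted p = 0.0216). Within slides 1 and 2 it was 1.37 and 1.00 in H/A with WT and 1.29 and 1.39 in Del with WT, with adjusted p of 0.118 to 0.416. The H/A call was lost without any 1 of H/A replicates 2, 3 and 4, WT replicates 1 and 4, Del replicate 4 and Flox replicate 4, at 0.97 to 1.38. The Del call was lost without any 1 of WT replicate 4 and Del replicates 3 and 4, at 1.05 to 1.27. On the 10 arrays with a matching file both were called, at 1.68 (adjusted p = 0.0463) and 1.68 (adjusted p = 0.0304). The second Brca2 probe, marked on 6 arrays, had group means of 3.54 in WT, 3.54 in Flox, 3.32 in H/A and 3.50 in Del. Its differences were -0.22 in H/A with WT (adjusted p = 0.66) and -0.04 in Del with WT (adjusted p = 0.938), and with the mean of both probes neither Brca2 call stood (0.53 and 0.66).

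Xrcc2, which assists strand invasion, was bright on all 16 arrays and fell in H/A with Flox. Its log2 value was 8.11, 7.44, 8.11 and 8.16 in WT and 7.93, 7.99, 8.16 and 8.22 in Flox. It was 7.60, 7.49, 7.28 and 7.71 in H/A and 7.81, 7.997, 7.54 and 7.83 in Del. All H/A arrays lay below all Flox arrays, while WT replicate 2 lay as low as H/A. The difference in H/A with Flox was -0.55 (95% interval -0.90 to -0.21, adjusted p = 0.021 in limma). It was -0.43 in H/A with WT (adjusted p = 0.0922), -0.16 in Del with WT (adjusted p = 0.492) and -0.28 in Del with Flox (adjusted p = 0.179). Without WT replicate 2, H/A with WT was called too, at -0.60 (adjusted p = 0.0108). Without scaling between arrays the difference in H/A with Flox was -0.01 (adjusted p = 0.988) and in H/A with WT 0.09, above 0; there the median of all genes was 0.31 and 0.37. The H/A with Flox call was also lost without any 1 of H/A replicates 2 and 3 and Flox replicates 3 and 4 (-0.54 to -0.47). On the 10 arrays with a matching file, with a single Flox array on the other slide than H/A, the difference was -0.70. With the slide as a block it was -0.50 (adjusted p = 0.0252), and within slides 1 and 2 -0.50 and -0.47, with adjusted p of 0.195 and 0.297.

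**Figure D2:**
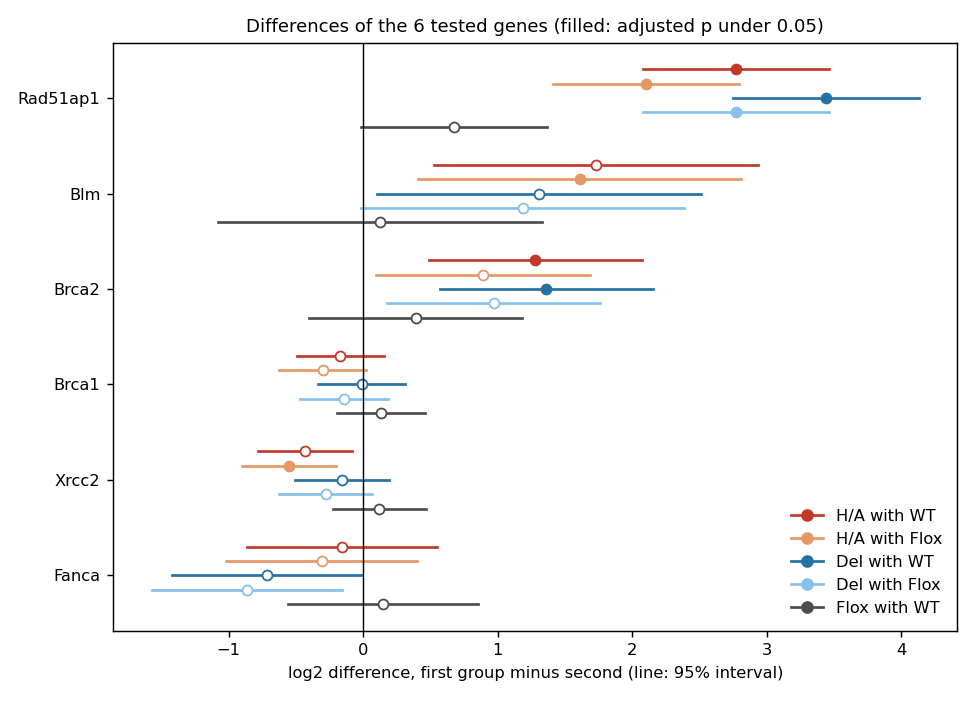
Log2 difference (x axis, first group minus second) of the 6 tested genes (y axis) in 5 comparisons, with lines for 95% intervals and filled points where limma's adjusted p was under 0.05. The measured differences of Rad51ap1, whose controls lie below background, are between 2.10 and 3.44 in the 4 comparisons of a mutant with a control, and no point for Flox with WT is filled.

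Brca1, the ubiquitin ligase partner of Bard1 that promotes end resection, was measured brightly and was not called in any comparison. Its brightest probe read 7.59, 7.52, 7.61 and 7.38 in WT and 7.85, 7.81, 7.39 and 7.59 in Flox. It read 7.48, 7.29, 7.55 and 7.11 in H/A and 7.87, 7.59, 7.29 and 7.31 in Del. The groups overlapped in every comparison. The difference was -0.17 in H/A with WT (95% interval -0.50 to 0.16, adjusted p = 0.441 in limma) and -0.01 in Del with WT (-0.34 to 0.31, adjusted p = 0.961). Against Flox it was -0.30 for H/A (-0.63 to 0.02, adjusted p = 0.131) and -0.14 for Del (-0.47 to 0.18, adjusted p = 0.457). With the slide as a block H/A with Flox was called, at -0.37 (adjusted p = 0.0326 in limma). Without scaling it was 0.22 and of the opposite sign, but there the median of all genes was 0.31.

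The dimmer probes of Brca1 were at or near background. Probe XM_006532064 was at 1.27, 1.29, 1.23 and 1.46 in WT and 1.53, 2.33, 1.22 and 1.25 in Flox, and at 2.39, 1.83, 3.44 and 2.80 in H/A and 3.82, 3.11, 3.51 and 2.83 in Del. It was well above background on 1 array, Del replicate 3. Probe XM_006532068 was marked on no array and had means of 1.41 in WT, 1.49 in Flox, 2.28 in H/A and 2.39 in Del. Values this dim have no order, and no fold or bound is given for either probe.

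**Figure D3:**
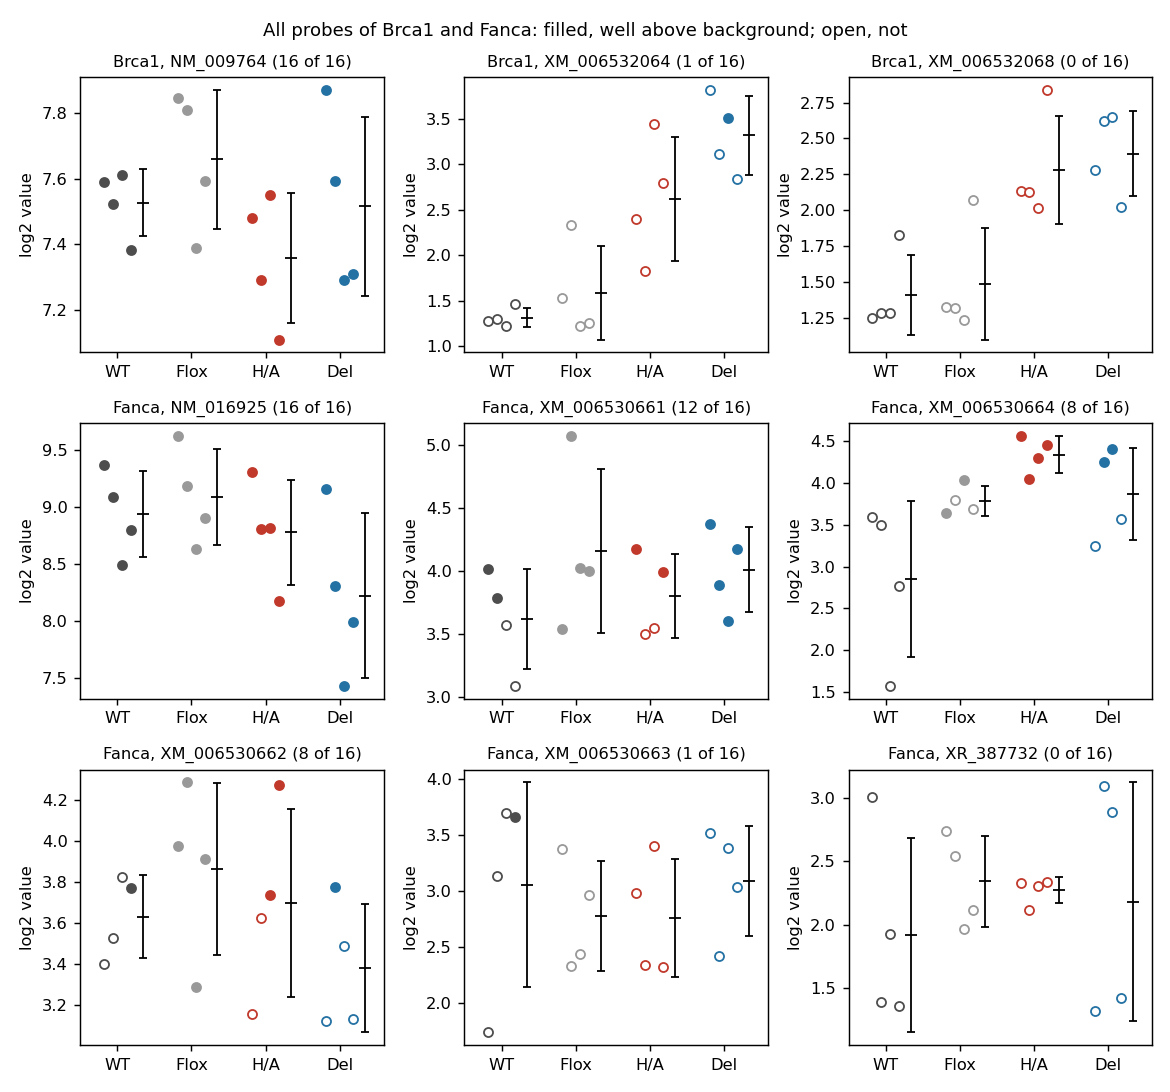
Log2 value (y axis) of all 3 Brca1 and 6 Fanca probes by group (x axis), with 1 point per array, filled where well above background, and bars for the mean ± SD of 4 mice. The bright Brca1 probe overlaps between all groups, and its other probes are almost all open points, not above background.

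Fanca, a scaffold of the Fanconi anaemia core complex, had the brightest probe of its 6 on all arrays and was not called. That probe read 9.37, 9.09, 8.50 and 8.80 in WT and 9.63, 9.19, 8.63 and 8.91 in Flox. It read 9.31, 8.81, 8.82 and 8.18 in H/A and 9.16, 8.31, 7.43 and 7.995 in Del. Del had the lowest mean and the widest spread, 8.22 ± 0.72 (SD, n = 4), and overlapped both controls through Del replicate 1. The difference was -0.72 in Del with WT (95% interval -1.42 to -0.01, adjusted p = 0.146 in limma) and -0.87 in Del with Flox (-1.57 to -0.16, adjusted p = 0.0538). It was -0.16 in H/A with WT (adjusted p = 0.754 in limma) and -0.31 in H/A with Flox (adjusted p = 0.472). Without scaling these 2 were above 0, at 0.38 and 0.27, but there the median of all genes was 0.37 and 0.31. In every group the slide 1 arrays read higher than the slide 2 arrays. Del replicate 1 was the only Del array on slide 1. Without Del replicate 1 Fanca was called lower in Del with WT (-1.03, adjusted p = 0.0403) and in Del with Flox (-1.18, adjusted p = 0.0125). On the 10 arrays with a matching file, where all Del arrays were on slide 2, it was called lower in Del with WT (-1.18, adjusted p = 0.0383). With the filter of 4 marked arrays in a group it was called lower in Del with Flox (adjusted p = 0.0453). With the slide as a block the Del with Flox difference of -0.67 was called (adjusted p = 0.0235), but that of -0.52 in Del with WT was not (adjusted p = 0.0883). Without H/A replicate 4 the Del with Flox difference of -0.87 was called too (adjusted p = 0.0492). Within slide 1, with 1 Del array, the differences were -0.07 in Del with WT and -0.25 in Del with Flox. Within slide 2 they were -0.74 and -0.86.

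A further Fanca probe, XM_006530664, was called higher in H/A with WT. It read 3.59, 3.50, 1.57 and 2.77 in WT and 3.64, 3.80, 4.04 and 3.69 in Flox. It read 4.57, 4.05, 4.30 and 4.45 in H/A and 3.25, 4.25, 4.41 and 3.57 in Del. It was well above background on all 4 H/A arrays and on no WT array, and the WT and H/A values did not overlap. When each of 37814 passing probes was tested on its own, it was called in H/A with WT (adjusted p = 0.0194 in limma), where 9.33% of all such probes were called. Since WT lay below background the size has only a bound, at least 1.70-fold. It was not called in Del with WT (adjusted p = 0.0746), in H/A with Flox (0.55, adjusted p = 0.243) or in Del with Flox (0.08, adjusted p = 0.874). The 4 other probes of Fanca had group means of 1.92 to 4.16.

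Fancd2, whose monoubiquitination by the core complex is the switch of the Fanconi pathway, stayed at the floor. Its log2 value was 1.28 to 1.33 in WT, 1.26 to 1.33 in Flox and 1.29 to 1.35 in Del. In H/A it was 1.35, 1.30, 1.32 and 2.18, so that a single array stood apart. The probe was not well above background on any array, and values at the floor have no order.

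Blm, the helicase that resects ends and dissolves recombination intermediates, rose in H/A with Flox. Its log2 value was 4.12, 4.31, 1.88 and 3.08 in WT and 3.74, 3.58, 2.98 and 3.59 in Flox. It was 3.84, 6.02, 5.14 and 5.32 in H/A and 4.75, 3.24, 5.58 and 5.06 in Del. H/A replicate 1 and Del replicate 2 lay among the controls, and the other 6 mutant arrays lay above all 8 control arrays. The probe was well above background on 3 H/A, 3 Del, 2 WT and 1 Flox array. Its control marks fell short of the 4 needed, so Blm entered the test only with its marked mutant arrays. The sizes below are measured values against mostly unmarked controls. The difference was 1.61 in H/A with Flox (95% interval 0.41 to 2.81, adjusted p = 0.0407 in limma) and 1.73 in H/A with WT (0.53 to 2.93, adjusted p = 0.0616). It was 1.31 in Del with WT (0.11 to 2.51, adjusted p = 0.124) and 1.18 in Del with Flox (-0.02 to 2.39, adjusted p = 0.107). With the slide as a block the H/A with Flox difference was 1.47 (adjusted p = 0.0577), and within slides 1 and 2 it was 1.34 and 2.04, with adjusted p of 0.169 and 0.249. On the 10 arrays with a matching file, with a single Flox array on the other slide than H/A, it was 2.02.

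The Blm result turned on single arrays. The call in H/A with Flox was lost without any 1 of the 4 Flox arrays or of H/A replicates 2, 3 and 4, at 1.29 to 1.70. Conversely, H/A with WT was called without H/A replicate 1 (2.14, adjusted p = 0.0249), WT replicate 2 (2.05, adjusted p = 0.027) or Del replicate 2 (1.73, adjusted p = 0.0425). Without Del replicate 2, Blm was also called in Del with WT (1.78, adjusted p = 0.0406) and in Del with Flox (1.66, adjusted p = 0.0299).

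Exo1, the exonuclease of long-range resection, was not well above background on any array. Its log2 value was 1.26, 1.24, 1.34 and 1.32 in WT and 1.27, 1.31, 1.54 and 1.35 in Flox. It was 2.40, 2.18, 2.18 and 2.41 in H/A and 3.33, 1.84, 3.29 and 1.36 in Del. Values this dim have no order, and no fold is given. Without the filter limma called Exo1 in Del with Flox (1.09, adjusted p = 0.0397) and in no other comparison (0.92 to 1.17, adjusted p from 0.0541 to 0.0999 in the other comparisons of a mutant with a control). These differences rest only on values that could not be told from background.

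No tested member was called between the controls or between the mutants. Of the 6 tested genes limma called 0 in Flox with WT, 0 in H/A with Del and 0 for the difference of H/A minus WT and Del minus Flox, and 0 were under an unadjusted p of 0.05 in each. Of all genes, 0.0222%, 0.0127% and 0.00318% were called there. The widest difference between the mutants was that of Rad51ap1, -0.67 in H/A with Del (95% interval -1.36 to 0.02, adjusted p = 0.65), with all H/A arrays below all Del arrays. For Fanca, H/A minus Del was 0.56 (-0.15 to 1.26, adjusted p = 0.719). Rad51ap1 was not well above background in WT or Flox, so no difference between the controls is given. For the contrast of H/A minus WT against Del minus Flox, which uses no array on both sides, Fanca gave 0.71 (-0.29 to 1.71). For Blm it was 0.55 (-1.15 to 2.25), an interval that takes in differences as large as those called.

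The partners of the 9 genes mostly did not pass. Bard1, the partner of Brca1, was bright and had differences of -0.31 to 0.16, with adjusted p from 0.44 to 0.936. Rad51c, Rad51d and Xrcc3, relatives of Xrcc2, the Rad54l relative Rad54b, the helicase Brip1, and Rmi1 and Top3a, which work with Blm, were not called in these 4 comparisons either. Palb2 and Rmi2 did not pass the filter, and Fanci is not analysed here. Ube2t, the ubiquitin-conjugating enzyme that acts on Fancd2, was called higher in all 4 (adjusted p from 0.00202 to 0.0105). Its probe was marked on all 8 mutant arrays, through which it entered the test, on no WT array and on 1 Flox array. H/A was at least 2.13-fold and Del at least 2.67-fold above WT, and against Flox the measured means were 2.53 in Flox, 4.64 in H/A and 4.97 in Del.

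Counts in the lists are read against all genes, of which 7.08%, 8.85%, 15.9% and 16.6% were called higher in H/A with WT, Del with WT, H/A with Flox and Del with Flox, and 2.97%, 4.38%, 17.3% and 18.2% lower. A list of 55 other homologous recombination genes had 47 tested members, of which 9 (19.1%) rose in H/A with WT, 11 (23.4%) in Del with WT, 18 (38.3%) in H/A with Flox and 20 (42.6%) in Del with Flox. None fell against WT in either mutant (1 in Del with normexp background correction), and 4 fell in each comparison with Flox; without scaling between arrays 0 fell. The median differences were 0.18, 0.19, 0.28 and 0.34. Chek1, the kinase that holds the cell cycle when replication stalls, rose by 1.69 in H/A with WT (adjusted p = 0.0111) and by 2.82 in Del with Flox (adjusted p = 0.000203), on a probe marked on all 8 mutant arrays but on 1 WT and 1 Flox array, so that these sizes are measured values against mostly unmarked controls. Tonsl, which acts at stalled replication forks, rose by 0.52 in H/A with WT (adjusted p = 0.0283) and by 1.12 in Del with Flox (adjusted p = 0.000118). Topbp1, an activator of the ATR kinase, and Rpa1, which coats single-stranded DNA, rose by 0.77 and 0.57 in H/A with WT and by 0.76 and 0.72 in Del with Flox, with adjusted p from 0.00114 to 0.00978. On the 10 arrays with a matching file 1 rose in H/A with WT and 5 in Del with WT. Of all 31480 genes only 447 and 899 rose there, so the shares above do not apply. These arrays held a single Flox array, so no count against Flox is given.

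Of 17 other Fanconi anaemia genes 16 were tested, and 2 (12.5%) rose in H/A with WT, 6 (37.5%) in Del with WT, 5 (31.2%) in H/A with Flox and 6 (37.5%) in Del with Flox, with none falling. Besides Ube2t, Faap20, a core complex subunit, rose by 0.91 in H/A with WT (adjusted p = 0.0164) and 1.29 in Del with Flox (adjusted p = 0.000965). End joining rejoins broken ends without a template. Of its 12 tested genes 1 fell in H/A with WT, 0 were called in Del with WT, 2 (16.7%) rose and 3 (25.0%) fell in H/A with Flox, and 1 (8.33%) rose and 4 (33.3%) fell in Del with Flox; these are few genes against background shares of 15.9% to 18.2%. In Del with WT 5 of these had an unadjusted p under 0.05 in limma, and without scaling none of the 12 fell in any of the 4 comparisons. The median of the 12 was above 0, from 0.11 to 0.29, against the falls. The end-joining polymerases Poll and Polm fell by 0.53 and 0.51 in Del with Flox (adjusted p = 0.0265 and 0.0105), and Aptx, which repairs stalled ligation ends, fell by 0.47 in H/A with WT (adjusted p = 0.0443). Xrcc5, of the Ku complex that binds broken ends, rose by 0.45 in H/A with Flox (adjusted p = 0.0222) and differed by 0.44 in H/A with WT (adjusted p = 0.051).

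Of 29 tested genes of mismatch, base and nucleotide excision repair, 2 (6.9%) rose in H/A with WT, which is near the background share, 6 (20.7%) in Del with WT, 8 (27.6%) in H/A with Flox and 10 (34.5%) in Del with Flox. In the last pair 4 (13.8%) and 6 (20.7%) fell, near the background share of falls. No gene of this list fell without scaling. Apex1, the endonuclease of base excision repair, rose by 0.72 in H/A with WT (adjusted p = 0.044) and 1.09 in Del with Flox (adjusted p = 0.00249). Of 20 meiotic recombination genes 9 were tested, and 1, 2, 3 and 4 rose in H/A with WT, Del with WT, H/A with Flox and Del with Flox, with 2 falling in H/A with Flox (0 without scaling). The median of the 9 was below 0 in all 4, from -0.20 to -0.13, against the rises. Hfm1, a helicase known from meiotic crossing over, rose by 2.31 in H/A with WT (adjusted p = 0.00187) and 2.21 in Del with Flox (adjusted p = 0.00113). The synaptonemal complex gene Sycp3 and the crossover gene Msh5 were marked on no array.

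**Figure D4:**
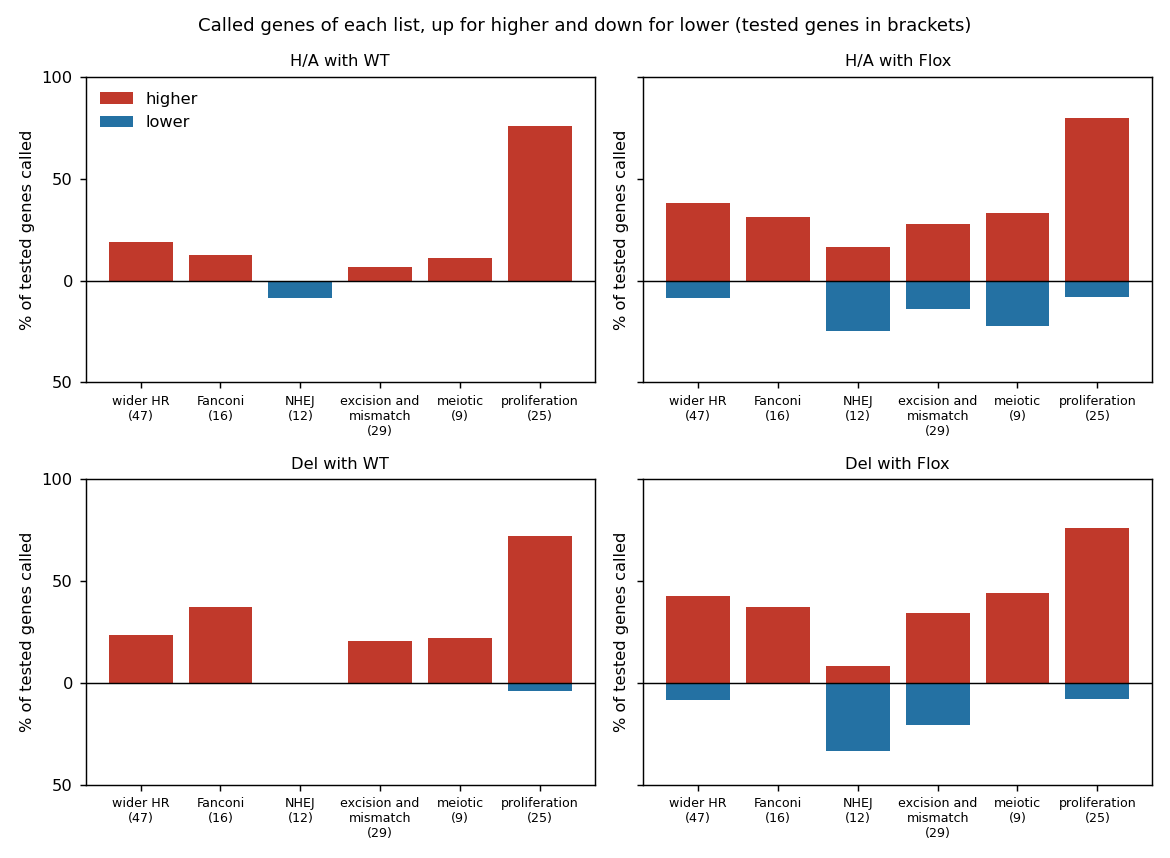
Share of tested genes called higher (up) and lower (down, both in percent) in each repair list and in the proliferation list, in 4 comparisons; the number of tested genes stands in brackets. The proliferation list, with 18 to 20 of 25 called higher, has the tallest bars, and the end joining list (NHEJ) has the lowest upward ones.

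Proliferation genes and macrophage markers moved with these results. Of 25 tested proliferation genes 19, 18, 20 and 19 rose in H/A with WT, Del with WT, H/A with Flox and Del with Flox, with medians of 1.63, 1.99, 1.74 and 1.99, and 0, 1, 2 and 2 fell (0, 0, 0 and 1 without scaling). On each array their mean log2 value was 4.996 to 5.76 in WT, 4.93 to 5.63 in Flox, 6.53 to 7.17 in H/A and 6.91 to 7.34 in Del. Mki67, which marks cycling cells, rose by 1.76, 2.35, 1.40 and 1.99 in the same order (adjusted p from 6.76e-05 to 0.00266). Of 10 tested markers of Kupffer cells and macrophages 8, 6, 8 and 6 rose, and 1 fell in Del with Flox (0 without scaling). Their mean log2 value was 6.23 to 7.15 in WT, 6.71 to 6.99 in Flox, 7.49 to 8.69 in H/A and 7.62 to 7.91 in Del. Itgam was marked on no array. Of 10 stellate cell markers 2, 2, 3 and 6 rose. Of 9 lymphocyte markers at most 1 rose in any of the 4, and of 10 hepatocyte markers at most 1 rose and at most 1 fell. Of 9 neutrophil markers 3, 1, 3 and 1 rose, and of 8 endothelial markers 0, 0, 3 and 1. Of 7 erythroid markers 2, 1, 2 and 2 fell and 1 rose in H/A with Flox. Of 6 cholangiocyte markers 0, 1, 2 and 1 fell and 0, 0, 1 and 1 rose, with medians above 0 (0.16 to 0.45). In H/A with Flox 1 lymphocyte and 1 neutrophil marker fell. Of all genes 15.9% rose and 17.3% fell in H/A with Flox, and 16.6% rose and 18.2% fell in Del with Flox. Against these shares, single calls among 6 to 9 markers are near the background. The part of these cell populations in the values of Rad51ap1, Brca2, Blm and the repair lists was not tested.

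**Figure D5:**
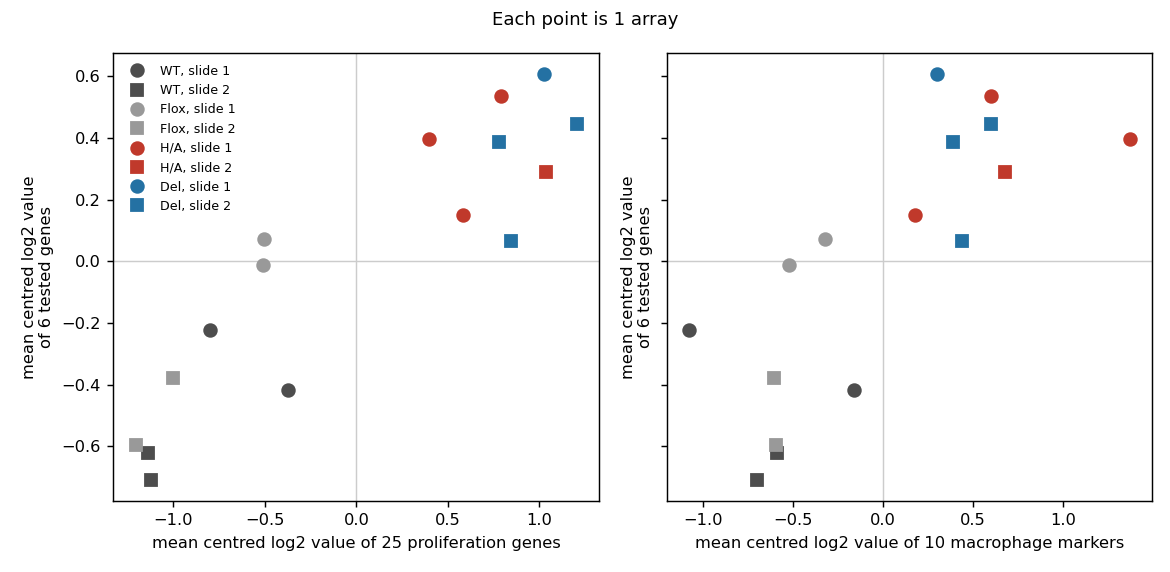
Mean centred log2 value of the 6 tested genes (y axis) against that of 25 proliferation genes (left x axis) and of 10 macrophage markers (right x axis), with 1 point per array and the slide as the symbol. All H/A and Del arrays lie above 0 on every axis, and Flox replicates 1 and 2, on slide 1, lie next to them on the y axis. The y axis includes Rad51ap1 and Blm, which passed the filter only with the marks of their bright mutant arrays, so it does not test the set.

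Each gene was centred on its own mean over 16 arrays, and the 6 tested genes were averaged on each array. This average was 0.15 to 0.54 in H/A, 0.07 to 0.61 in Del, -0.71 to -0.22 in WT and -0.59 to 0.07 in Flox. It includes Rad51ap1 and Blm, which passed the filter only with the marks of their bright mutant arrays. Among the 6, only Rad51ap1 set all mutant arrays apart from all control arrays. The split of the average is therefore no test of the set, nor are the genes closest to it. Flox replicates 1 and 2, at 0.07 and -0.01, were the highest controls, and Del replicate 2, at 0.07, was the lowest mutant, so that Del and Flox touched. The genes with the closest profile to this average were Gm34016 (r = 0.94), Arhgap11a (0.94), Ephx1 (0.93), Gm5414 (0.93) and Ano6 (0.93) over 16 arrays, which share groups and slides. The 6 genes did not follow a single profile among themselves. Over the 16 arrays r was 0.73 between Brca2 and Rad51ap1, 0.67 between Rad51ap1 and Blm and 0.59 between Brca2 and Blm. Brca1 and Fanca had r = 0.67 with each other, and -0.48 to -0.09 with Brca2, Rad51ap1 and Blm. Xrcc2 had r = -0.74 with Blm. These are descriptions over arrays that differ in genotype.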

How the data were processed

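Liver RNA of 16 mice was hybridised to 1-colour Agilent arrays. The log2 values were deposited by the authors as 1 table; per the submitters' processing notes, Agilent Feature Extraction 11 and Partek were used, and the steps are not given in the sources used here. Set against the scanner files, the table equals quantile-normalised log2 signals to within 0.0063. The scanner files hold intensity values that, per the file headers, Feature Extraction 11.5.1.1 background-subtracted within each array; they supplied the well-above-background marks and the alternatives.

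Each of 60037 probes was named through its accession, and 36264 had a symbol (RefSeq, GRCm38.p6). The 37814 probes marked on at least 4 of 16 arrays were kept, and the probe with the highest mean stood for a gene. limma 3.58.1 (R 4.3.3) fitted the 4 groups over 31480 genes, with Benjamini-Hochberg adjusted p-values and a threshold of 0.05. Tested on simulated data for H/A with WT over 31480 genes, it recovered 6%, 68%, 90% and 100% of genes changed by 0.5, 1, 2 and 4 on the log2 scale, with 3 false calls of 135.

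The members and the lists (other homologous recombination, Fanconi anaemia, end joining, excision and mismatch repair, meiotic recombination, proliferation and 8 sets of cell type markers) were chosen with earlier results of these data known. Of other genes, partners of the members chosen by role, the 2 tested genes of each list with the smallest p in H/A with WT and in Del with Flox, and Mki67 could be named. Alternatives covered the source of the values, scaling, background correction, filter, probe choice, slide, moderation, the groups fitted and each array left out. The 10 matching arrays and the test of each probe were added after seeing the data. Replicate numbers only name the mice; the labels tie no arrays across genotypes.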

Additional observations from a re-analysis of the deposited data

Results flagged for a closer look

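Among 36 groups of 4 arrays (9 genes in 4 genotypes), 3 held an array far from the other 3, by a gap to the nearest of them past the 95% critical value of Dixon's test. Chance flags about 1 in 20 groups. The log2 value of Rad54l in WT replicate 2 was 2.8108, against 1.27 to 1.31 in the other WT mice, and was not well above background. That of Fancd2 in H/A replicate 4 was 2.1782, against 1.30 to 1.35 in the other H/A mice, also not well above background. That of Xrcc2 in WT replicate 2 was 7.4431, against 8.11 to 8.16 in the other WT mice, on a bright probe. WT replicate 2 held 2 of the 3 values.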

How the results depend on the processing

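Of the 6 tested genes, the number called was 2 in H/A with WT, 2 in Del with WT, 1 in Del with Flox and 3 in H/A with Flox. With the scanner files taken as listed it was 0 in each of these, where at most 5 of all 31480 genes were called. Within slide 1 it was 0 in H/A with WT and in H/A with Flox. There 11 and 9 of all genes rose and 3 and 0 fell. With so few calls over all genes, a count of 0 tells nothing about these 6. Slide 1 held a single Del array and slide 2 a single H/A array, so their counts within those slides are left out. In H/A with WT it was 1 with the mean of probes, with either slide block and with both groups fitted alone. Without scaling it was 3 (Blm added), but there 9416 of all genes rose and 126 fell, against 2230 and 936 with scaling. Without a filter Rad54l was called there and Brca2 was not (adjusted p = 0.0714 in limma). In Del with WT it was 3 on the 10 matching arrays (Fanca added), and it was 1 with the mean of probes, the slide of the listed file as a block, within slide 2 and both groups fitted alone. In Del with Flox it was 2 with the 75th percentile scaling, normexp, the listed slide as a block and trend and robust moderation, and 3 with the stricter filter and with the label's slide as a block. Without a filter it was 3 of all 9 genes: Rad51ap1 with Rad54l and Exo1, which are not among the 6. In H/A with Flox it was 1 with the listed slide as a block. The 10 matching arrays held a single Flox array, so no count against Flox is given for them. Leaving out 1 array at a time gave 1 to 4 in H/A with WT, 1 to 3 in Del with WT, 1 to 3 in Del with Flox and 1 to 3 in H/A with Flox. The cause of these shifts was not tested. Flox with WT, H/A with Del and the difference of the contrasts gave 0 with each array left out. No called value changed sign. No paired analysis was possible because the labels give no replicate numbers that tie arrays across genotypes. Signal over background limits Rad54l, Exo1 and Fancd2, which had too few marked arrays for the test.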
